A study of Schmidtea mediterranea with 152 samples.

Results

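Marker transcripts of neurons, cilia and cell division were followed in single cells of the planarian Schmidtea mediterranea. By the study's account these cells had been sorted as non-dividing and screened for collagen, a muscle marker. The set held 39 of the 26399 contigs in the count table, of which 15 were neural, 16 cilia and 8 cell division markers, and they were picked by contig number from the study's annotation. Contigs are shortened here, so that dd_1566 stands for dd_Smed_v4_1566, and carry the name of their best human BLAST hit or of the planarian gene. Cells of the asexual strain CIW4, taken from animals starved for 7 to 14 days, were sequenced one per library with Smart-seq2, a full-length cDNA method without molecular identifiers. Regenerating pole cells (5 libraries) and regenerating non-pole muscle cells (75 libraries) were taken at the midline of the posterior blastema, the outgrowth at the wound, 72 hours after tail amputation. Uninjured pole cells (7 libraries) and uninjured non-pole muscle cells (65 libraries) were taken at the midline of intact tail tips. No group carried a transgene or a gene knockdown, and all cells passed a gate for the 2N DNA content of cells outside division. In the study a pole cell was one whose cDNA held collagen and the Wnt ligand gene wnt1 in a qRT-PCR screen. A non-pole muscle cell held collagen without wnt1. GEO's labels say pole or non-pole and give no screen result. The study reports fewer pole and fewer non-pole cells than the libraries labelled so, and whether every library passed the screen is not stated.

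Neurons release transmitters and peptides from vesicles and sense glutamate with ionotropic receptors. Motile cilia, which planarians use for gliding and in their excretory system, are built on an axoneme of microtubules, tektins and dynein arms, anchored by a rootlet and switched on by the transcription factor foxJ1. In planarians only neoblasts, the adult stem cells, divide, and muscle is the main source of collagens. Roles named below are those known for vertebrate proteins unless a planarian gene is named. The study chose cells to sequence by the collagen screen, so the primers of that screen are shown. Nothing in them is in capitals, since no base was singled out, and the sources used here do not say which contig they amplify.
collagen forward primer (24 bases): ggtgtacttggagacgttggttta
collagen reverse primer (23 bases): ggtctaccttctcttcctggaac

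After cells with fewer than 50000 reads were left out and 6 pairs of near-identical libraries were summed to 1 cell each, there were 5 regenerating pole, 7 uninjured pole, 69 regenerating non-pole and 53 uninjured non-pole cells. All 6 pairs were uninjured non-pole libraries, and such a cell is named by both of its numbers. Reads per cell ran between 51801 and 4132918, with a median of 906071 in regenerating pole, 648498 in uninjured pole, 218403 in regenerating non-pole and 444246 in uninjured non-pole cells. The muscle name was checked on the summed level of 13 collagen contigs in CPM (reads of a contig scaled to a fixed total of 1000000 reads on the contigs used). Cells fell on both sides of a gap. Collagen lay between 62.7 and 1866 CPM in 19 cells and between 9857 and 172463 CPM in all others, and a boundary of 5000 CPM was set in the gap after it had been seen. The 19 collagen-poor cells (0 regenerating pole, 1 uninjured pole, 6 regenerating non-pole and 12 uninjured non-pole) kept their labels. Each held between 1 and 6 of the collagen contigs at 20 CPM or more, so a low summed level does not by itself contradict a collagen screen. Of these, 11 held between 1561 and 11573 CPM of dd_920 (agat-1), a planarian marker of epidermal progenitors, whereas 2 collagen-rich cells held 1000 CPM or more. Results that rest on collagen-poor cells are given with and without them. Each group counts as 1 sample, because the labels name no animal or plate and cells are not replicates, so no test was run, and all intervals (95%, exact) cover counting error only.

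A contig was taken as present in a cell at 20 CPM or more, and by that measure a few of the 39 markers were read in many cells and most in few. No cell had a read of spp-13 (dd_1538), DNAH10 (dd_49372) or DNAI1 (dd_39721), which allows a share of up to 2.72% of cells. WDR96 (dd_10271) and DCDC2 (dd_20159) were read in 2 cells each and never reached 20 CPM. Another 9 contigs reached it in 1 to 3 cells, 19 in at least 4 cells but under 25% of cells, and 6 in 25% of cells or more. These 6 widely read contigs were GRIK3 (dd_4267), GRIN1 (dd_5682), PC2 (dd_1566), DCDC2 (dd_6464), HMGB2 (dd_1331) and vasa-2 (dd_2082), and they made up 467 of the 716 instances of a marker present in a cell (65.2%). Of 14 neural, 12 cilia and 8 cell division markers with at least 20 summed reads, 21.4%, 8.33% and 25% were as widely read, beside 19.02% of all 19372 transcripts with as many reads. A neural marker of this kind was present in a mean of 17.5% of cells, a cilia marker in 9.89% and a cell division marker in 21.4%, beside 14.02% for all transcripts. CPM is not scaled by length, so levels and shares of different contigs also depend on their lengths.

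**Figure D1:**
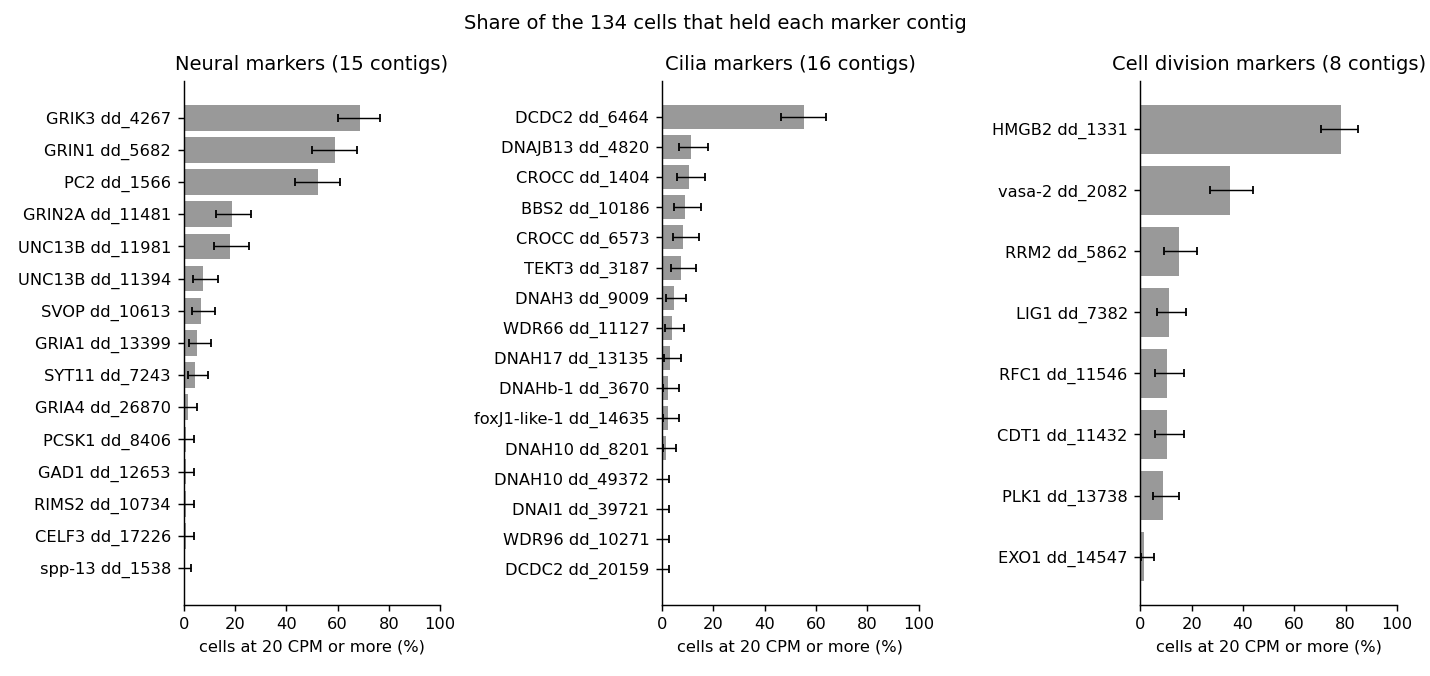
Share of all cells (x axis, %) in which each of the 39 marker contigs reached 20 CPM; bars are shares and lines are exact 95% intervals for counting error. HMGB2 (78.4%), GRIK3 (68.7%), GRIN1 (59%), DCDC2 dd_6464 (55.2%), PC2 (52.2%) and vasa-2 (35.1%) stand out, and all other contigs lie under 25%.

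Among neural markers, 2 glutamate receptor subunits and a peptide-processing enzyme were read most widely, ahead of the vesicle proteins. GRIK3 (dd_Smed_v4_4267), a kainate receptor subunit, was present in 92 cells (68.7%, interval 60.1 to 76.4%). Its level was 24, 382, 128.9, 139.06 and 140 CPM in the 5 regenerating pole cells, all of which passed 20 CPM. It lay between 0 and 285 CPM (median 0) in uninjured pole, between 0 and 2371 CPM (median 165) in regenerating non-pole and between 0 and 2294 CPM (median 110) in uninjured non-pole cells, so that all groups overlapped. GRIN1 (dd_Smed_v4_5682), the subunit that all NMDA receptors contain, was present in 79 cells (59%, 50.1 to 67.4%). Its level was 0 to 1218 CPM (median 267) in regenerating pole, 0 to 543 CPM (median 0.384) in uninjured pole, 0 to 2052 CPM (median 195) in regenerating non-pole and 0 to 2867 CPM (median 0) in uninjured non-pole cells. It was present in 73.9% of regenerating non-pole cells (61.9 to 83.7%), against 41.5% of uninjured non-pole cells (28.1 to 55.9%), and these intervals did not meet. They cover counting error only, and for how many of all transcripts such intervals lie apart was not worked out. The difference is therefore not read as particular to GRIN1 or as an effect of regeneration. PC2 (dd_Smed_v4_1566), the planarian prohormone convertase that cuts neuropeptide precursors, was present in 70 cells (52.2%, 43.4 to 60.9%). Its median level was 142.4 CPM in regenerating pole, 11.8 CPM in uninjured pole, 35.3 CPM in regenerating non-pole and 26.9 CPM in uninjured non-pole cells, and its highest, 1863 CPM, was in uninjured non-pole cell 63.

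The other neural markers were strong in few cells. GRIN2A (dd_11481), a second NMDA receptor subunit, was present in 25 cells and highest, at 1835 CPM, in uninjured non-pole cell 30. UNC13B, which primes synaptic vesicles for release, had 2 contigs, of which dd_11981 was present in 24 cells, up to 1175 CPM, and dd_11394 in 10 cells, up to 3428 CPM. Whether reads were shared between contigs of 1 name is not stated in the sources used here, so the split between them is uncertain. SVOP (dd_10613), a synaptic vesicle protein, was present in 9 cells, GRIA1 (dd_13399), an AMPA receptor subunit, in 7, and SYT11 (dd_7243), of the synaptotagmin family, in 6. Of all GRIA1 reads, 71.4% came from a single cell. GRIA4 (dd_26870), another AMPA receptor subunit, was present in 2 cells, both uninjured pole cells. PCSK1 (dd_8406), a second prohormone convertase, GAD1 (dd_12653), which makes GABA, RIMS2 (dd_10734), a scaffold of the release site, and CELF3 (dd_17226), an RNA-binding protein, were present in 1 cell each.

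Only 1 cilia marker was widely read. DCDC2 (dd_Smed_v4_6464), a doublecortin-domain protein that binds microtubules, was present in 74 cells (55.2%, 46.4 to 63.8%). Its level was 0 to 48.5 CPM (median 2.05) in regenerating pole, 0 to 79.5 CPM (median 19.6) in uninjured pole, 0 to 384 CPM (median 44.8) in regenerating non-pole and 0 to 815 CPM (median 34.5) in uninjured non-pole cells. The next were DNAJB13 (dd_4820), a radial spoke protein, in 15 cells up to 203 CPM, and CROCC (rootletin), the protein of the ciliary rootlet, whose contigs dd_1404 and dd_6573 were present in 14 and 11 cells, up to 586 and 760 CPM. BBS2 (dd_10186), of the complex that moves membrane proteins in and out of cilia, was present in 12 cells, up to 975 CPM, and TEKT3 (dd_3187), a tektin, in 10 cells, up to 403 CPM. Axonemal dynein heavy chains were rarer, with DNAH3 (dd_9009) in 6 cells, DNAH17 (dd_13135) in 4, DNAHb-1 (dd_3670) in 3 and DNAH10 (dd_8201) in 2. WDR66 (dd_11127), an axonemal protein, was present in 5 cells, and the planarian gene foxJ1-like-1 (dd_14635) in 3. Of all DNAHb-1 reads, 98.5% came from uninjured pole cell 5.

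The cell division markers read most widely were a chromatin protein and an RNA helicase rather than replication factors. HMGB2 (dd_Smed_v4_1331), a chromatin protein that cells outside division can also hold, reached 78.4% of cells (70.4 to 85%). Its level was 0 to 874 CPM (median 316) in regenerating pole, 0 to 1003 CPM (median 1.54) in uninjured pole, 0 to 1596 CPM (median 353) in regenerating non-pole and 0 to 1424 CPM (median 152.5) in uninjured non-pole cells. The groups overlapped over most of their ranges. The planarian gene vasa-2 (dd_Smed_v4_2082), of the DEAD-box RNA helicases, was present in 47 cells (35.1%, 27 to 43.8%), with a median of 0 CPM in each group and a highest level of 1114 CPM in uninjured pole cell 3. Replication factors were rarer, with RRM2 (dd_5862), which makes deoxynucleotides, in 20 cells up to 401 CPM, LIG1 (dd_7382), a DNA ligase, in 15, RFC1 (dd_11546), part of the clamp loader, in 14 up to 829 CPM, and CDT1 (dd_11432), which licenses replication origins, in 14 up to 874 CPM. PLK1 (dd_13738), a mitotic kinase, was present in 12 cells up to 680 CPM, and EXO1 (dd_14547), a DNA exonuclease, in 2. Uninjured non-pole cell 42 held LIG1 at 2736 CPM, which was 84.2% of all its reads.

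The markers of a class present in each cell were then counted, and 3 or more were taken as several. Several neural markers were held by 5 of 5 regenerating pole cells (interval 47.8 to 100%), 2 of 7 uninjured pole cells (28.6%, 3.67 to 71%), 34 of 69 regenerating non-pole cells (49.3%) and 19 of 53 uninjured non-pole cells (35.8%). Regenerating pole cells held 3, 4, 5, 4 and 4 neural markers, and uninjured pole cells held 0, 3, 1, 2, 4, 1 and 2. The intervals of all groups overlapped. Several cilia markers were held by 1 of 5 regenerating pole, 1 of 7 uninjured pole, 3 of 69 regenerating non-pole (4.35%) and 8 of 53 uninjured non-pole cells (15.1%). Several cell division markers were held by 1 of 5 regenerating pole, 1 of 7 uninjured pole, 12 of 69 regenerating non-pole (17.4%) and 14 of 53 uninjured non-pole cells (26.4%). Over all groups these were 60 cells for neural (44.8%, 36.2 to 53.6%), 13 for cilia (9.70%, 5.27 to 16%) and 28 for cell division markers (20.9%, 14.4 to 28.8%). After each cell was thinned to 50000 reads the numbers were 66, 13 and 31 cells.

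**Figure D2:**
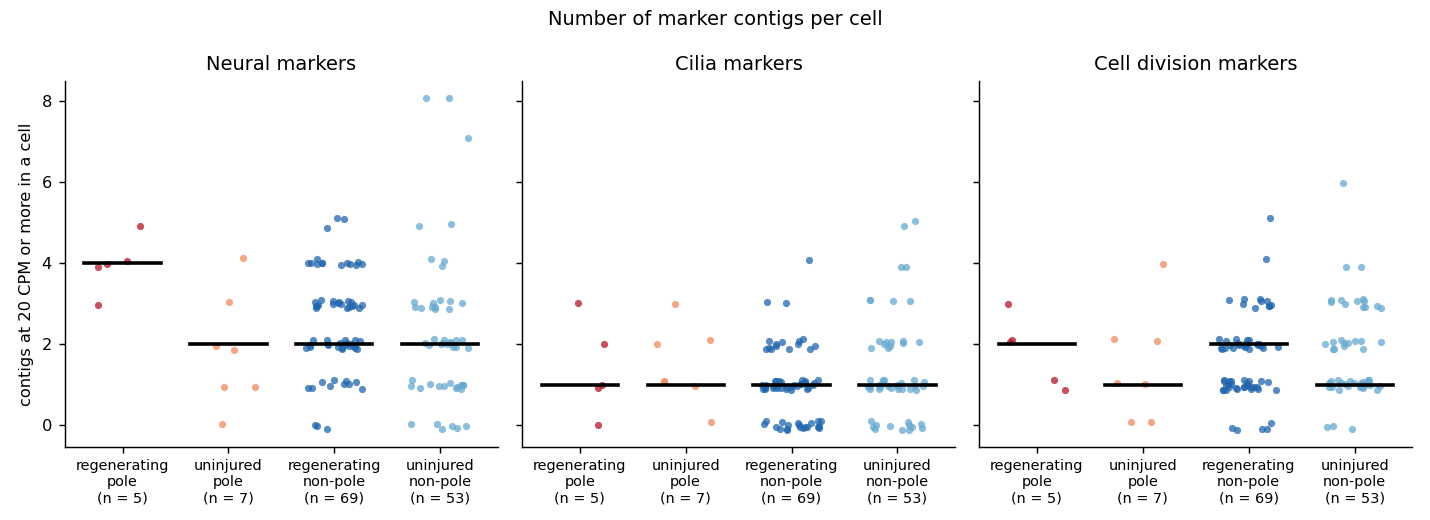
Number of marker contigs at 20 CPM or more in each cell (y axis), by class and group; points are cells, spread slightly so that they do not cover each other, and black lines are medians. The neural median was 4 in regenerating pole cells and 2 in each other group, and the highest numbers (8 neural, 5 cilia and 6 cell division markers) were in uninjured non-pole cells.

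The widely read contigs carried most of these counts. Without PC2, GRIN1 and GRIK3, 4 cells (2.99%) held 3 or more neural markers, and without HMGB2 and vasa-2, 3 cells (2.24%) held 3 or more cell division markers. Without DCDC2 (dd_6464), 8 cells still held 3 or more cilia markers. Of the 92 cells with GRIK3, 79 (85.9%) held HMGB2, 63 (68.5%) held GRIN1 and 60 (65.2%) held DCDC2, beside 78.4%, 59% and 55.2% of all cells. Cells with several neural and several cell division markers numbered 16, which is 26.7% of the first set and 57.1% of the second, beside 20.9% of all cells with several cell division and 44.8% with several neural markers. Cells with several neural and several cilia markers numbered 5 (8.33% and 38.5% of the sets, beside 9.70% of all cells with several cilia and 44.8% with several neural markers). Those with several cilia and several cell division markers numbered 4 (30.8% and 14.3%, beside 20.9% and 9.70% of all cells). Uninjured non-pole cell 6, at 105638 CPM of collagen, was the only cell with several of all 3 classes, and 3 cells held no marker at all.

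The cells richest in neural markers lay on both sides of the collagen gap. Uninjured non-pole cell 12, at 741 CPM of collagen, held 8 neural markers, with GRIN1 at 2867, PC2 at 1152, SYT11 at 847, UNC13B at 814 (dd_11394) and 209 CPM (dd_11981), GRIK3 at 715, GRIN2A at 182 and GRIA1 at 26.5 CPM. Uninjured non-pole cell 63, at 904 CPM of collagen, held 7, with UNC13B at 3428 (dd_11394) and 699 CPM (dd_11981), PC2 at 1863, GRIK3 at 1425, SYT11 at 717, GRIN1 at 419 and GRIA1 at 74.5 CPM. These were the only non-pole cells with SYT11 and UNC13B dd_11394 both present, they had the highest summed neural levels of all cells (6812 and 8626 CPM), and neither had a read of agat-1. Uninjured non-pole cell 54+55 also held 8 neural markers, but at 60672 CPM of collagen and with its vesicle markers low, namely UNC13B at 38.7 (dd_11394) and 49.2 CPM (dd_11981) and SVOP at 28.1 CPM, beside GRIK3 at 917, GRIN2A at 738 and GRIN1 at 394 CPM. Regenerating pole cell 3, regenerating non-pole cells 19, 70 and 74, and uninjured non-pole cells 34+35 and 65 held 5 neural markers each and lay between 26904 and 103461 CPM of collagen. In regenerating non-pole cell 74 GRIA1 reached 2450 CPM.

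Of the 13 cells with several cilia markers, 5 were collagen-poor, and 4 of these 5 held agat-1 at 6960 to 10934 CPM. Uninjured non-pole cell 31+32, at 380 CPM of collagen and 8528 CPM of agat-1, held CROCC at 586 (dd_1404) and 217 CPM (dd_6573), TEKT3 at 403, DNAHb-1 at 48 and BBS2 at 25.2 CPM. Uninjured non-pole cell 26, at 295 CPM of collagen and 6960 CPM of agat-1, held TEKT3 at 157, CROCC at 154 (dd_1404) and 50.2 CPM (dd_6573), foxJ1-like-1 at 148.02 and BBS2 at 22 CPM. These cells thus combined rootlet and axoneme markers at a collagen level far under the uninjured non-pole median of 66364 CPM. Uninjured non-pole cell 62+64 held CROCC at 120 (dd_1404) and 34.3 CPM (dd_6573), foxJ1-like-1 at 111.4 and TEKT3 at 38.6 CPM. Regenerating non-pole cell 65, which had the lowest collagen level of all cells, held CROCC at 188 (dd_6573) and 172 CPM (dd_1404), DNAJB13 at 69.3 and BBS2 at 66 CPM. Uninjured non-pole cell 2, the fifth, had no read of agat-1 and held CROCC dd_6573 at 760, DNAHb-1 at 330 and TEKT3 at 272 CPM, beside the neural markers PC2 and GRIN1.

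foxJ1-like-1 was present in 3 cells, each of them collagen-poor and rich in agat-1, namely regenerating non-pole cell 36 (166 CPM, with agat-1 at 10494 CPM) and uninjured non-pole cells 26 and 62+64. In the collagen-rich cells with several cilia markers the combinations were other ones. Regenerating pole cell 2 held BBS2 at 224, DNAJB13 at 93 and TEKT3 at 86.8 CPM, and uninjured pole cell 5 held DNAHb-1 at 783, TEKT3 at 98 and DNAH17 at 40.2 CPM. All 6 collagen-rich non-pole cells with several (regenerating 38 and 67, uninjured 6, 28, 41 and 44) counted DCDC2 dd_6464, at 25.4 to 319 CPM. Beside it, uninjured non-pole cell 28 held BBS2 at 379, DNAJB13 at 197 and DNAH17 at 58.8 CPM, and uninjured non-pole cell 44 held both CROCC contigs, at 186 (dd_6573) and 84.1 CPM (dd_1404).

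Of the 28 cells with several cell division markers, 24 were collagen-rich (85.7%), beside 85.8% of all cells. Uninjured non-pole cell 34+35 held 6 of 8, with vasa-2 at 694, HMGB2 at 498, CDT1 at 208, RRM2 at 88.8, RFC1 at 73.7 and EXO1 at 67.7 CPM. Regenerating non-pole cell 51 held 5, with HMGB2 at 1273, CDT1 at 874, LIG1 at 245, vasa-2 at 82.3 and RRM2 at 24.7 CPM. Uninjured pole cell 4, regenerating non-pole cell 75, uninjured non-pole cell 57+58 and the collagen-poor uninjured non-pole cell 31+32 held 4 each. The 3 cells with 3 or more markers besides HMGB2 and vasa-2 (uninjured non-pole 34+35, regenerating non-pole 51 and 75) lay between 18910 and 29735 CPM of collagen, under the median of 58416 CPM of all cells. Uninjured non-pole cell 34+35 also held the most transcripts of these, 5285 at 20 CPM or more. The number of cell division markers moved with the number of transcripts that a cell held (Spearman's rho 0.36 over 69 regenerating non-pole and 0.42 over 53 uninjured non-pole cells). In the same cells rho was 0.02 and 0.29 for neural and 0.14 and 0.20 for cilia markers. The part of the transcript number in the counts of any class was not tested.

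The relation to collagen was read first by splitting non-pole cells at the gap into 18 collagen-poor cells (6 regenerating and 12 uninjured) and the collagen-rich rest (63 regenerating and 41 uninjured). Several neural markers were held by 3 collagen-poor cells (16.7%, 3.58 to 41.4%), against 50 collagen-rich cells (48.1%, 38.2 to 58.1%). The order was the opposite for several cilia markers, with 5 collagen-poor cells (27.8%, 9.69 to 53.5%) against 6 collagen-rich cells (5.77%, 2.15 to 12.1%). Several cell division markers were held by 4 collagen-poor cells (22.2%) and 22 collagen-rich cells (21.2%). The intervals overlapped in each class. Within regenerating cells several cell division markers were held by 0 of 6 collagen-poor cells, against 12 of 63 collagen-rich cells (19.05%), and within uninjured cells by 4 of 12 (33.3%), against 10 of 41 (24.4%), so the near-equal pooled shares join opposite orders. Several neural markers were held by 0 of 6 against 34 of 63 (53.97%) in regenerating and by 3 of 12 (25%) against 16 of 41 (39.02%) in uninjured cells, and several cilia markers by 1 of 6 against 2 of 63 and by 4 of 12 (33.3%) against 4 of 41 (9.76%). The intervals overlapped in each of these too. Median reads were 241876 in collagen-poor and 218403 in collagen-rich regenerating cells, but 320364 in collagen-poor and 562570 in collagen-rich uninjured cells, and the part of depth in these shares was not tested.

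Single contigs were then compared in the same way. GRIK3 was present in 2 collagen-poor cells (11.1%, 1.38 to 34.7%), against 83 collagen-rich cells (79.8%, 70.8 to 87%). DCDC2 dd_6464 was present in 2 collagen-poor cells (11.1%), against 68 collagen-rich cells (65.4%, 55.4 to 74.5%), and GRIN1 in 4 (22.2%, 6.41 to 47.6%), against 69 (66.3%, 56.4 to 75.3%). HMGB2 was present in 8 collagen-poor cells (44.4%, 21.5 to 69.2%), against 90 collagen-rich cells (86.5%, 78.4 to 92.4%). For each of these 4 contigs the interval of the collagen-poor cells lay wholly under that of the collagen-rich cells. Both CROCC contigs had the opposite order, dd_6573 with 6 collagen-poor cells (33.3%, 13.3 to 59%) against 5 collagen-rich cells (4.81%, 1.58 to 10.9%), and dd_1404 with 5 (27.8%, 9.69 to 53.5%) against 8 (7.69%, 3.38 to 14.6%), and the intervals were apart for dd_6573 and overlapped for dd_1404. TEKT3 was present in 6 collagen-poor cells (33.3%, 13.3 to 59%), against 0 of the collagen-rich non-pole cells (up to 3.48%), although 4 collagen-rich pole cells held it. foxJ1-like-1 was present in 3 collagen-poor cells (16.7%, 3.58 to 41.4%), against 0 collagen-rich cells (up to 3.48%). PC2, with 61.1% of collagen-poor and 51% of collagen-rich cells, and vasa-2, with 38.9% and 34.6%, had intervals that overlapped widely. PLK1 was present in 0 of 18 collagen-poor cells and in 11 collagen-rich cells, a difference that was not detectable with this number of cells. For how many of all transcripts the intervals lie apart across this split was not worked out, so none of these differences is read as particular to the markers. Collagen-poor non-pole cells held a median of 3073 transcripts at 20 CPM or more, against 2720.5 in collagen-rich ones, and the part of this was not tested.

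**Figure D3:**
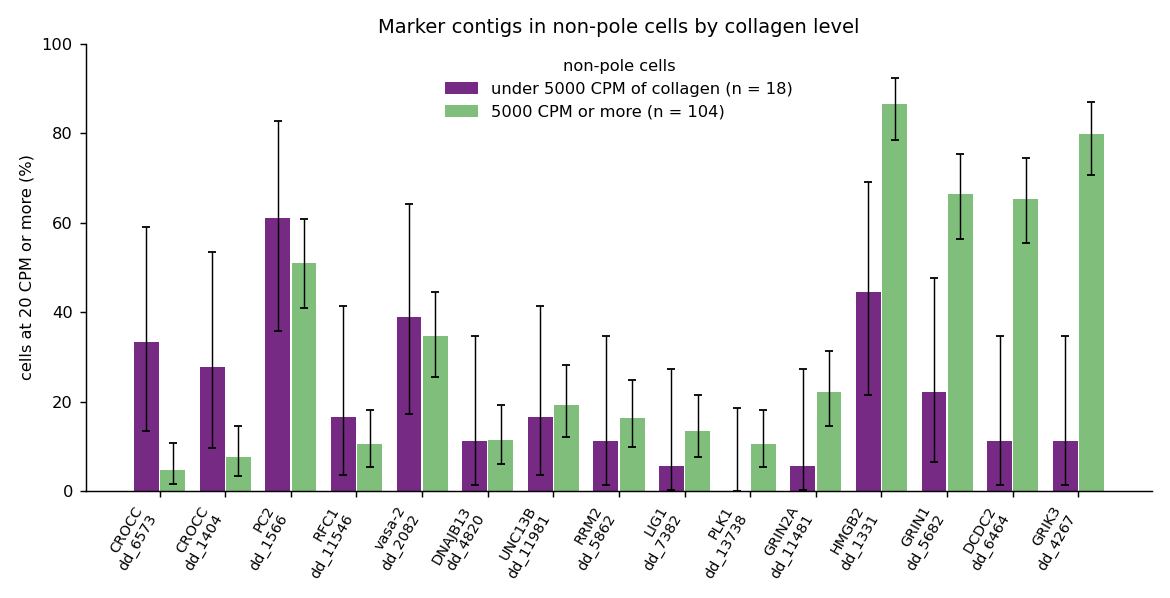
Share of non-pole cells at 20 CPM or more (y axis, %) for the 15 marker contigs present in at least 10 non-pole cells, in the 18 cells under 5000 CPM of collagen (purple) and in all others (green); lines are exact 95% intervals for counting error. GRIK3 (11.1% against 79.8%), DCDC2 dd_6464, GRIN1 and HMGB2 have lower shares in collagen-poor cells, and both CROCC contigs have higher ones; TEKT3 and foxJ1-like-1, in fewer than 10 non-pole cells, are not drawn.

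Within collagen-rich cells the number of markers and the collagen level were related weakly in regenerating cells, and in uninjured cells the values lay near 0 or under it. Over 63 regenerating non-pole cells Spearman's rho between the number of markers and the collagen level was 0.25 for neural, 0.25 for cilia and 0.14 for cell division markers, and over 41 uninjured non-pole cells it was 0.05, 0.04 and -0.20. With the collagen-poor cells, which lie across the gap, rho was 0.40, 0.18 and 0.29 over 69 regenerating non-pole cells and 0.17, -0.10 and -0.02 over 53 uninjured non-pole cells. In the same cells the number of all transcripts at 20 CPM or more had rho of 0.02 (regenerating) and -0.46 (uninjured) with collagen. The part of this in the marker values was not tested. Cells of a group share their sample and differ in depth, and markers and collagen share the total behind CPM, so these values are descriptions. Taken by contig over all cells of a group, rho with collagen was 0.51 in regenerating and 0.39 in uninjured non-pole cells for GRIK3, and 0.29 and 0.54 for DCDC2 dd_6464. It was 0.24 and -0.02 for GRIN1, 0.12 and -0.14 for HMGB2, -0.11 and -0.23 for PC2, and 0.13 and -0.34 for vasa-2.

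**Figure D4:**
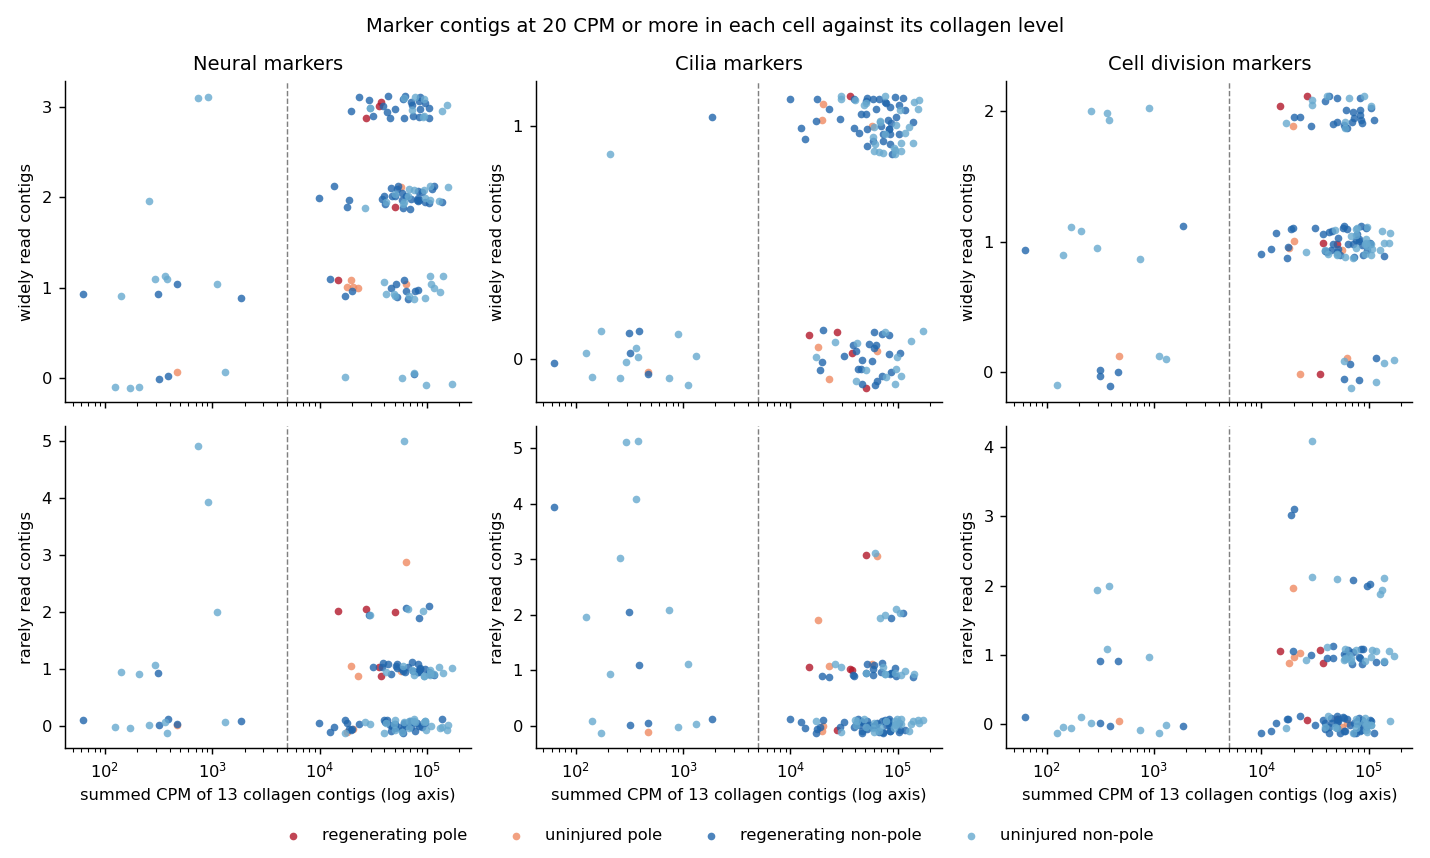
Number of widely read (upper y axes) and rarely read (lower y axes) marker contigs at 20 CPM or more in each cell against the summed CPM of 13 collagen contigs (x axes, log scale), by class; points are cells coloured by group and spread slightly along the y axis, and the dashed line is the boundary at 5000 CPM. No cell lies between 1866 and 9857 CPM, and of the 8 cells with 3 or more rarely read cilia contigs 5 lie left of the line.

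Of the 39 markers, 24 were present in at least 1 of the 12 pole cells, 12 of them in exactly 1 pole cell, and 4 (PCSK1, RIMS2, GRIA4 and CELF3) in pole cells alone. All of these are among the 34 markers with at least 20 summed reads, of which they make up 70.6%, 35.3% and 11.8%, beside 54.03%, 20.7% and 1.93% of all 19372 transcripts. With 12 pole cells, and with 9 of the markers in the study's own pole list, nothing is read from these shares. Another 10 were present in non-pole cells only (29.4%, beside 42.9% of all transcripts), among them LIG1 (15 cells), RFC1 (14), CROCC dd_6573 (11), SVOP (9) and GRIA1 (7). Their non-pole shares were 12.3% or less. A count of 0 in 12 pole cells allows about 25%, taken as 3 over the number of cells rather than as an exact limit. A difference was thus not detectable at this number of cells. CDT1 was at 168, 0, 0, 0 and 36.8 CPM in regenerating pole cells and at 0, 0, 608, 139.02, 0, 393 and 412 CPM in uninjured pole cells. It was present in 6 pole cells, against 4 of 69 regenerating non-pole and 4 of 53 uninjured non-pole cells. UNC13B dd_11394 was at 125.01, 0, 850, 0 and 597 CPM in regenerating pole cells, against a read in 1 of 69 regenerating non-pole cells, at 16.5 CPM. SYT11 was at 0, 68, 220, 0 and 0 CPM in regenerating pole cells and was strong in 1 uninjured pole cell, cell 2, at 777 CPM.

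Cilia markers in pole cells came mostly 1 or 2 at a time. TEKT3 was at 24, 86.8, 0, 32 and 0 CPM in regenerating pole cells, against 1 of 69 regenerating non-pole cells at 20 CPM or more, and at 98 CPM in uninjured pole cell 5. BBS2 was at 0, 224, 0, 0 and 160 CPM in regenerating pole cells and at 975 CPM in uninjured pole cell 3 and 35.5 CPM in cell 2. HMGB2 was at 630, 282, 316, 874 and 0 CPM in regenerating pole cells, of which 4 passed 20 CPM, and at 0, 236, 0, 1003, 0, 369 and 1.54 CPM in uninjured pole cells, of which 3 did. Several contigs were strong in a single pole cell, such as RIMS2 at 591 CPM in regenerating pole cell 1, PLK1 at 252 CPM in regenerating pole cell 4 and PCSK1 at 107.6 CPM in uninjured pole cell 7. Uninjured pole cell 1, the collagen-poor one, held no marker at 20 CPM.

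**Figure D5:**
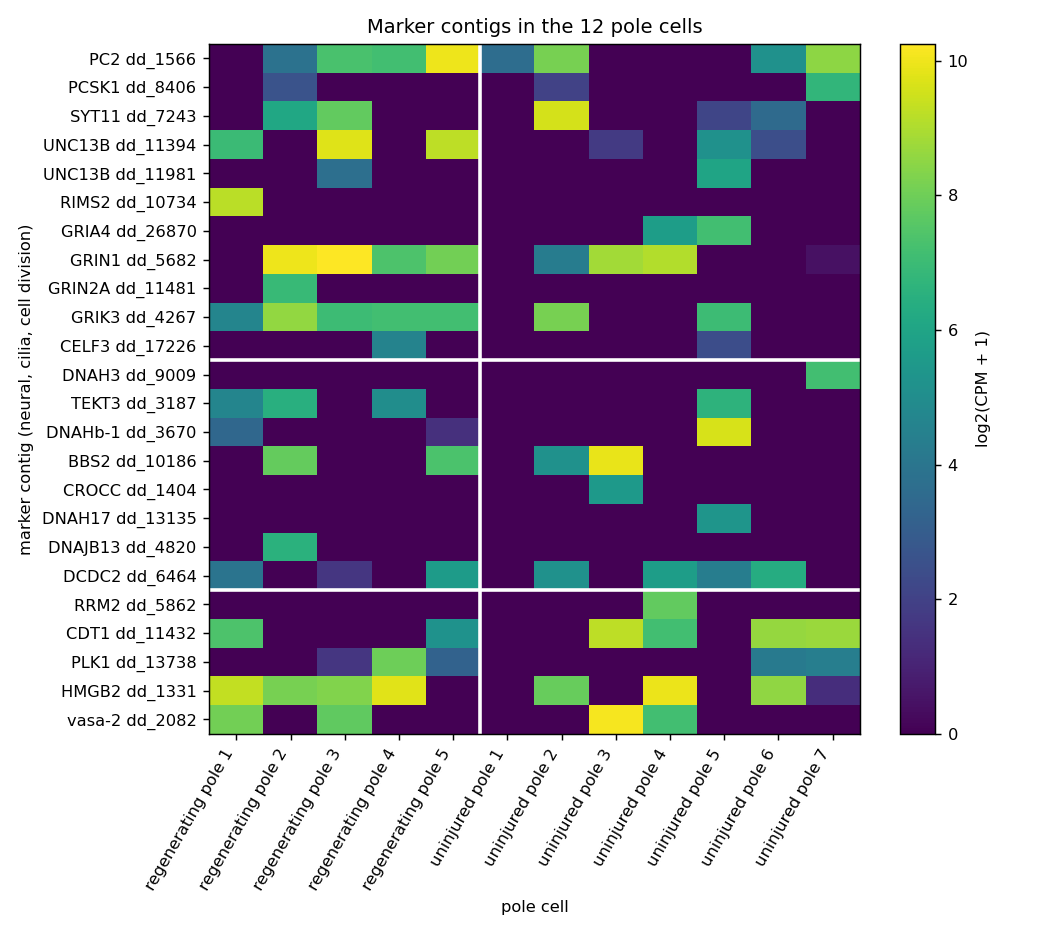
Level of the 24 marker contigs that reached 20 CPM in a pole cell, as log2(CPM + 1) by colour, in the 5 regenerating pole cells (left) and the 7 uninjured pole cells (right). GRIK3 reached 20 CPM in all 5 regenerating pole cells, 12 contigs did so in exactly 1 pole cell, and uninjured pole cell 1 held none at that level.

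For a comparison of groups, the reads of a contig were added up within each group, and log2 folds were taken with a pseudocount of 1 CPM, which understates differences of low contigs. Fewer cells with a transcript and less of it per cell cannot be told apart in such totals. Of the markers, 9 (PC2, PCSK1, SYT11, UNC13B dd_11394, GRIA4, TEKT3, DNAHb-1, BBS2 and CDT1) are in the list of posterior pole genes that the study drew from pole and non-pole cells of this data set, a smaller set than the one used here, so their direction in pole cells is not independent evidence.

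In uninjured tails 4 of 14 neural, 3 of 12 cilia and 1 of 8 cell division markers were higher in pole than in non-pole cells by 2-fold or more, beside 18.9% of all 19372 transcripts. Lower by as much were 6 neural, 6 cilia and 5 cell division markers, beside 48.1% of all transcripts. Median log2 folds were -0.22 for neural, -1.20 for cilia and -1.29 for cell division markers, beside -0.91 for all transcripts. CDT1 stood at 231 CPM in the pole cells and at 11.9 CPM in the non-pole cells (log2 fold 4.17, and 3.71 without its top cell). GRIA4 stood at 52.7 CPM in the pole cells and had no read in the non-pole cells, but it was present in 2 of 7 pole cells, and 96.1% of its reads came from uninjured pole cell 5. The other 6 that were higher did not stay so without their top pole cell, among them DNAHb-1 and TEKT3, all of whose pole reads came from uninjured pole cell 5, and DNAH3 and PCSK1, with 100% and 99.3% of their pole reads in uninjured pole cell 7. This is 2 of 8 markers that stayed past 2-fold, beside 16.5% of all transcripts that were higher. Both of these, CDT1 and GRIA4, are in the study's pole list. Outside that list 1 of 9 neural, 1 of 9 cilia and 0 of 7 cell division markers were higher by 2-fold or more with all cells. LIG1 had no read in the pole cells and 225 CPM in the non-pole cells, of which 7 of 53 held it (13.2%), and 92.6% of these reads came from uninjured non-pole cell 42. GRIN2A had no read in the pole cells and 74.97 CPM in the non-pole cells, of which 10 held it (18.9%). A count of 0 in 7 pole cells allows a share of up to 40.96%, so for LIG1 and GRIN2A a difference in the share of cells was not detectable. GRIK3 (61.8 CPM in pole and 321 CPM in non-pole cells), DCDC2 dd_6464 (33.3 and 168 CPM) and RRM2 (9.02 and 42.3 CPM) were lower too, also without their top cell.

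In blastemas 7 of 14 neural, 2 of 12 cilia and 1 of 8 cell division markers were higher in pole than in non-pole cells by 2-fold or more, beside 13.2% of all transcripts. Lower were 3 neural, 6 cilia and 4 cell division markers, beside 37.8%. Median log2 folds were 0.62 for neural, -1.07 for cilia and -1.12 for cell division markers, beside -0.43 for all transcripts. Of the 7 neural markers, 4 are in the study's pole list, and 3 stayed past 2-fold without their top pole cell, beside 20.6% of all transcripts that were higher. These were UNC13B dd_11394 (332.9 CPM in pole and 0.295 CPM in non-pole cells, log2 fold 8.01), SYT11 (76.8 and 2.06 CPM, 4.67) and GRIN1 (678 and 234 CPM, 1.53). PC2 (250 and 86.9 CPM, 1.51) was under 2-fold without regenerating pole cell 5, and RIMS2, PCSK1 and CELF3 had all their pole reads in 1 cell each. BBS2 (85.01 and 5.70 CPM) and TEKT3 (32.1 and 4.47 CPM), both in the study's list, stayed past 2-fold, whereas PLK1 (64.4 and 2.95 CPM) had 97% of its pole reads in regenerating pole cell 4. RRM2 and RFC1 had no read in the pole cells, against 14.2 and 17.3 CPM in the non-pole cells, and LIG1 stood at 1.37 CPM, against 47.7 CPM. These were present in 8 (RRM2), 7 (RFC1) and 8 (LIG1) of 69 regenerating non-pole cells. A count of 0 in 5 pole cells allows up to 52.2%, so a difference in the share of cells was not detectable.

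Some of these values moved with the collagen-poor cells. When these were left out, 3 of 12 cilia markers in blastemas were lower in pole cells by 2-fold, against 6 with them, beside 34.7% of all transcripts without these cells and 37.8% with them. In uninjured tails 4 cilia markers were lower, against 6 (42.8% and 48.1% of all transcripts), and 6 of 14 neural markers were higher, against 4 (19.8% and 18.9%). Among non-pole cells 1 neural and 5 cilia markers were lower in regenerating cells, against 3 and 7 (27.6% and 29%), and 4 neural markers were higher, against 3 (22.5% and 19.9%). In blastemas the log2 folds of CROCC were then -0.62 (dd_6573) and -0.46 (dd_1404), against -2.89 and -2.07 with them, and in uninjured tails both were at -2.73, against -3.09 and -3.72. The fold of UNC13B dd_11394 in uninjured pole over non-pole cells turned to 2.57 without the collagen-poor cells, against -0.41 with them, and that of SYT11 was 5.61, against 2.48. Each was present in only 1 of 7 uninjured pole cells, which held 90.1% (UNC13B dd_11394) and 91.1% (SYT11) of its reads in that group. TEKT3 in blastemas was at 4.97, against 2.60. The counts of cell division markers past 2-fold were the same with and without them in each comparison.

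Among non-pole cells 3 of 14 neural, 2 of 12 cilia and 2 of 8 cell division markers were higher in regenerating than in uninjured cells by 2-fold or more, beside 19.9% of all transcripts. Lower were 3 neural, 7 cilia and 3 cell division markers, beside 29% of all transcripts. Median log2 folds were -0.11 for neural, -1.07 for cilia and -0.08 for cell division markers, beside -0.22 for all transcripts. GRIN1 stood at 234 CPM in regenerating and 83.4 CPM in uninjured cells (log2 fold 1.48, and 1.39 without its top cell), and HMGB2 at 446 and 203 CPM (1.14 and 1.13). Reads of both were spread over many cells. WDR66 (11.05 and 0.323 CPM, log2 fold 3.19) and DNAJB13 (20.2 and 5.98 CPM, 1.60) were the cilia markers that were higher, and both stayed so without their top cell. CROCC dd_1404 was lower, at 3.19 CPM in regenerating and 34.8 CPM in uninjured cells (-3.10, and -3.72 without collagen-poor cells), as were BBS2 (-1.99, and -1.11 without its top cell) and DNAH17 (-2.91 and -1.04). These were the 3 of 7 lower cilia markers that stayed past 2-fold without their top cell, beside 37.4% of all lower transcripts. DNAH10 dd_8201, DNAHb-1, CROCC dd_6573 and DCDC2 dd_6464 did not stay. CDT1 was higher at 1.24 but stood at -0.39 without its top cell. LIG1 was lower at -2.22 but higher at 1.36 without uninjured non-pole cell 42. UNC13B dd_11394 and SYT11 were lower at -3.92 and -1.51, but stood at -0.93 and 1.6963 without the collagen-poor cells. SYT11 was present in only 1 of 69 regenerating non-pole cells, which held 92.9% of its reads in that group.

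Further markers of the same kinds, named in the study's annotation, spread in the same way. Of 14 further neural contigs NETO2 (dd_8579), an auxiliary subunit of kainate receptors, was present in 74 cells (55.2%), LRRC4 (dd_8690), a synaptic adhesion protein, in 45 (33.6%) and CNTN2 (dd_2673), an adhesion protein of axons, in 43 (32.1%), and the potassium channels KCNA1 (dd_17589) and KCNA3 (dd_17072) in none. Of 5 further cilia contigs, RAB28 (dd_375), a small GTPase, was present in 91.04% of cells and the other 4 in 5 to 16 cells. Of 6 further cell division contigs TLK1 (dd_6431), a kinase linked to chromatin assembly, was present in 58 cells (43.3%), TUBG1 (dd_4264), the gamma-tubulin of spindle poles, in 29 and the other 4 in 3 to 24. In uninjured pole over non-pole cells 3 of 11 further neural, 1 of 5 cilia and 2 of 6 cell division contigs were higher by 2-fold, and 5, 2 and 4 were lower, beside 18.9% and 48.1% of all transcripts. In blastemas 2, 2 and 2 were higher in pole cells and 4, 1 and 2 lower (13.2% and 37.8% of all transcripts). Among non-pole cells 2, 1 and 1 were higher in regenerating cells and 3, 0 and 1 lower (19.9% and 29%). Contigs of everyday cell functions reached between 21.6% (EIF5) and 69.4% (TARDBP) of cells.

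Outside these lists, the transcripts whose level followed the number of neural markers most over all cells were dd_1684 (Spearman's rho 0.52), dd_5005 (0.49), dd_4579 (0.47), dd_579 (0.47) and dd_3629 (0.45), each present in 78 cells or more. For cilia markers these were dd_4582 (0.35), dd_14141 (0.35), dd_7153 (0.34), dd_10737 (0.34) and dd_2792 (0.33), present in 6 to 25 cells. For cell division markers these were dd_24240, dd_13963 and dd_12059 (0.39 each), dd_10018 and dd_1807 (0.37 each). They are the highest of 11897 values per class, whose median was 0.04 for neural, 0.04 for cilia and 0.08 for cell division markers.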

How the data were processed

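Raw read counts that the authors deposited for 26566 rows of a planarian transcriptome assembly were used as they stand, in 4 groups set by GEO's labels alone. CASAVA 1.7.0, Trimmomatic 0.32 and Bowtie appear in the submitters' notes, and no source used here names what counted the reads. The other deposited table, the authors' own comparison of pole with non-pole cells (log2 fold estimates and scores), was not used. Left out were 6 rows, namely mitochondrial RNA (19.9% of reads), 2 contigs that the authors' own comparison also lacks (43.7%), 5S rRNA and rows outside the contig set, and 36.4% of reads remained. Rows of a contig number were summed (156 numbers). Left out were 12 libraries under 50000 reads. Library pairs that differed by a chi-square of 1.28 to 7.41 per degree of freedom (next pair 22.2) were summed. Counts became CPM per cell, and 20 CPM is about 1 read in the shallowest cell. Intervals for shares are Clopper-Pearson. Folds used contigs with at least 20 summed reads and their calculation was checked on simulated counts with known folds. Named were the most widely present contigs of a class, those past 1000 CPM, those present in pole cells, and the cells with most markers. Python 3.11.15, numpy 2.4.6, pandas 2.3.3, scipy 1.17.1 and matplotlib 3.10.9 were used. Members, lists and the boundary were chosen with earlier results of these data known.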

Additional observations from a re-analysis of the deposited data

Results flagged for a closer look

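Uninjured pole cell 2 stood apart from the other 6 uninjured pole cells in the summed level of the neural markers, at 1369 CPM, a gap to the next cell of 0.571 of the range of the group. Its reads came mainly from SYT11 (777 CPM), PC2 (285 CPM) and GRIK3 (285 CPM). It was 1 of 12 group values looked at in this way, and how often such a gap arises by chance was not worked out.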

How the results depend on the processing

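No paired analysis was possible because the labels carry no replicate numbers and no test was run. Cell numbers used here count the libraries of each group in the order of the series' sample list and pair no cells. Alternatives without the widely read contigs, without cells under 5000 CPM of collagen and without a contig's top cell were chosen after seeing the data. Small correlations and the folds of single contigs also changed sign under some alternatives, as given below and beside the contigs.

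The share of cells with several neural markers (44.8%) was 27.6% at 100 CPM, 73.9% and 20.9% for 2 or 4 markers, 26.1% without the contigs in the study's pole list and 2.99% without the widely read ones. For cilia (9.70%) it was 3.73% at 100 CPM, 29.1% and 3.73% for 2 or 4 markers and 5.22% without the pole list. For cell division (20.9%) it was 12.7% at 50 CPM, 8.96% at 100 CPM, 50.7% and 4.48% for 2 or 4 markers and 2.24% without the widely read ones.

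Spearman's rank correlation with collagen in regenerating non-pole cells was 0.25 for neural markers without collagen-poor cells. For cilia markers there it was 0.0397 at 50 CPM, 0.0336 after thinning to 50000 reads and 0.31 in cells of at least 200000 reads. For cell division markers there it was 0.16 with contractile contigs in place of collagen, 0.15 with summed CPM, 0.14 without collagen-poor and 0.15 without widely read ones. In uninjured non-pole cells the correlation of the neural markers turned to -0.0056 without the widely read ones; for cilia it was 0.0932 with summed CPM, 0.0437 without collagen-poor cells and -0.26 without the widely read one; for cell division it was -0.20 without collagen-poor cells and 0.13 without the widely read ones. The causes were not tested.

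Markers past 2-fold in either direction without each contig's top cell were 4 neural and 5 cilia in uninjured pole over non-pole cells, 6 neural and 3 cell division in regenerating pole over non-pole cells, and 2 neural, 5 cilia and 2 cell division in regenerating over uninjured non-pole cells. Of all transcripts past 2-fold, 16.5% of the higher and 61% of the lower ones stayed so in uninjured tails. These shares were 20.6% and 68.8% in blastemas, and 52.3% and 37.4% in regenerating over uninjured non-pole cells. In that last comparison 4-fold left 2 neural, 3 cilia and 2 cell division markers, and the share of all transcripts at 4-fold is not given here. Without collagen-poor cells 5 cilia markers were past 2-fold in regenerating pole over non-pole cells, beside 13.4% of all transcripts higher and 34.7% lower. Leaving out each pole cell in turn gave 8 to 11 neural, 9 to 11 cilia and 5 to 7 cell division markers past 2-fold in uninjured tails, and 9 to 11 neural, 8 to 10 cilia and 5 to 6 cell division markers in blastemas. The matching shares of all transcripts are not given here, so nothing about the markers is read from these ranges. The share of pole cells with several stayed at 100% for neural markers in blastemas, ran from 16.7% to 33.3% in uninjured tails, and for cilia and for cell division markers ran from 0% to 25% in blastemas and from 0% to 16.7% in uninjured tails.

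Depth limits what 0 means, and a group total of 0 was taken to allow up to 3 reads. This is 0.823 CPM in regenerating pole, 0.258 CPM in uninjured pole, 0.147 CPM in regenerating non-pole and 0.0693 CPM in uninjured non-pole cells.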
